A study of Mus musculus with 4 samples.

Results

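Excitatory neurons of the cerebral cortex load glutamate into synaptic vesicles and, as they mature, switch on genes for calcium signalling, activity-dependent transcription and axonal membrane structure. The 10 genes described here are the vesicular glutamate transporter genes Slc17a6, Slc17a7 and Slc17a8, the growth and plasticity gene Nrn1, the calcium/calmodulin-dependent kinase genes Camk2a and Camk2b, the transcription factor genes Mef2a, Mef2c and Mef2d, and the axonal adhesion gene Cntnap2. They were taken by name from the deposited table of 22770 genes, each matched 1 row, and 9 of the 10 passed the filter on low values, 0.5 FPKM or more in at least 2 libraries, as did 15399 genes in all. FPKM is a fragment count scaled by the length of a gene's exons and by the size of the library, so levels of different genes can be set side by side.

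The samples were 2 libraries of cortex from embryos with the genotype Pax6 sey/sey and 2 of cortex from wild-type littermates, all at embryonic day 16.5 and on 1 mixed background made of C57BL/6J, 129S6 and CD1 mice. Pax6 codes for a transcription factor of cortical progenitors, and sey/sey embryos carry the mutant allele on both chromosomes in every cell, not in cortex alone. The labels do not say whether each library came from its own embryo, so the p-values measure the spread between these libraries, which for the wild types may be technical. In limma the spread of each gene is estimated partly from that of other genes. The comparison asks how cortical RNA differs when Pax6 is mutant.

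FPKM totals were 579698 and 582183 in the mutants and 584570 and 593256 in the wild types, and the number of fragments behind them is not given. Pax6 RNA itself was 101 and 120 FPKM in the mutants and 28.8 and 27.0 FPKM in the wild types. Mutant library 1 stood apart in Xist, a transcript of the inactive X chromosome, at 350 FPKM, against 0.131 FPKM in mutant library 2 and 0.224 and 0.0788 FPKM in the wild types. Ddx3y, a gene of the Y chromosome, was listed at 0 in mutant library 1 and had 23.3 FPKM in mutant library 2 and 17.6 and 16.5 FPKM in the wild types, so the mutant libraries were not repeats of the same RNA. By these transcripts mutant library 1 looked female and the other libraries male, so sex was not balanced between genotypes. In limma, 536 of 15399 genes passed an adjusted p under 0.05. That number fell to 59 without mutant library 1, 27 without mutant library 2, 7 without wild-type library 1 and 13 without wild-type library 2, fits in which the lone library of a group is assumed to vary like the others.

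Glutamate is carried into vesicles by the 3 transporters encoded by Slc17a6 (VGLUT2), Slc17a7 (VGLUT1) and Slc17a8 (VGLUT3), which are driven by the proton gradient of the vesicle. In the adult brain VGLUT1 prevails in cortex and VGLUT2 in thalamus and brainstem, while the embryonic cortex uses both. The kinase CaMKII, built from subunits such as those of Camk2a and Camk2b, carries calcium signals at excitatory synapses, and the MEF2 proteins switch on activity-dependent genes in differentiating neurons.

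Mutant cortex had less RNA of Slc17a6, Nrn1 and Mef2c. Nrn1 stood at 20.1% of its wild-type mean, Slc17a6 at 22.2% and Mef2c at 62.3%. Of the 9 tested genes 3 fell and 0 rose (limma, adjusted p under 0.05 over all tested genes), where 1.46% of all tested genes were called lower, 2.02% higher and 3.48% in either direction. At an unadjusted p under 0.05, 5 of the 9 were lower, as were 9.23% of all tested genes, with 19.5% of all tested genes past that p in either direction. The median log2 fold change of the 9 was -0.50, against 0.00 over all tested genes, and 1 of 9 was above 0. Both mutants lay on 1 side of both wild types for 7 of the 9 genes, as they did for 51.6% of all tested genes. Without mutant library 1 only Nrn1 passed, and without mutant library 2, wild-type library 1 or wild-type library 2 none of the 9 passed, with 5, 5, 6 and 5 genes at an unadjusted p under 0.05 in the 4 fits, where 17.4%, 14.1%, 14.2% and 13.2% of all tested genes were. In bulk tissue fewer cells of a type and less RNA per cell cannot be told apart.

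**Figure D1:**
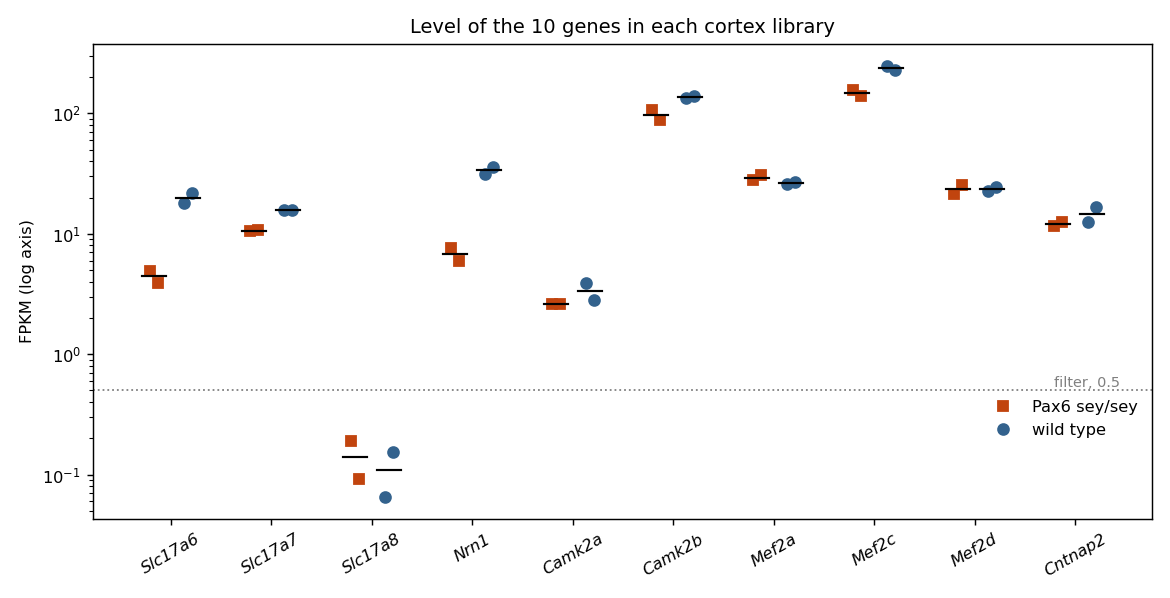
FPKM on a log axis of the 10 genes in each library, with mutants as squares left of wild types as circles, black lines for the mean of 2 libraries and a dotted line at the filter of 0.5 FPKM. Nrn1 has 7.65 and 5.92 FPKM in the mutants and 31.6 and 35.9 FPKM in the wild types, while Slc17a8 lies below the filter in all 4 libraries.

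Levels ran from Slc17a8, below 0.5 FPKM in every library, to Mef2c, with at least 140.8 FPKM in every library. In the mutants the order of the means, from high to low, was Mef2c, Camk2b, Mef2a, Mef2d, Cntnap2, Slc17a7, Nrn1, Slc17a6, Camk2a and Slc17a8. In the wild types it was Mef2c, Camk2b, Nrn1, Mef2a, Mef2d, Slc17a6, Slc17a7, Cntnap2, Camk2a and Slc17a8. Neighbours in each order did not overlap in their libraries, except for Slc17a7 and Cntnap2 in the wild types. Among all 22770 genes, Mef2c was higher than 97.9% in mutants and 98.8% in wild types, while Nrn1 was higher than 59.3% in mutants and 86.8% in wild types.

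Slc17a6 codes for VGLUT2 and lies on the plus strand of chromosome 7 from 51622006 to 51671119 (GRCm38, GENCODE M21). Its level was 4.96 and 3.92 FPKM in the mutants, against 18.1 and 22.0 FPKM in the wild types. Both mutants lay far below both wild types, with means of 4.44 ± 0.735 FPKM in mutants and 20.0 ± 2.74 FPKM in wild types (SD, n = 2 each). The log2 fold change of FPKM + 0.5 was -2.06 (SE 0.17, 95% interval -2.48 to -1.63, limma adjusted p = 0.0134), and 46 of the 15399 tested genes had a lower one. The call was lost without any 1 library (log2 fold change -2.21 to -1.90, adjusted p 0.0575 without mutant library 1, 0.0972 without mutant library 2, 0.117 without wild-type library 1 and 0.148 without wild-type library 2), with no filter (0.0526) and with no mean-variance trend (0.0557). Its annotated exons share no base with another gene.

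Slc17a7 codes for VGLUT1 and lies on the plus strand of chromosome 7 from 45163949 to 45176142. It had 10.5 and 10.7 FPKM in the mutants, against 15.8 and 15.7 FPKM in the wild types. The groups did not overlap, and the libraries of each group lay close together, but the gene missed the threshold with a log2 fold change of -0.55 (SE 0.09, 95% interval -0.79 to -0.31, limma adjusted p = 0.0523). The adjusted p lay between 0.0510 and 0.325 in all 13 alternatives.

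Slc17a8 codes for VGLUT3, a transporter of small neuron groups and of inner hair cells, and lies on the minus strand of chromosome 10 from 89574020 to 89621253. It was 0.189 and 0.0914 FPKM in the mutants and 0.0649 and 0.154 FPKM in the wild types. The groups overlapped below the filter, so it was not tested.

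The main transporter RNA was Slc17a7 in both mutants and Slc17a6 in both wild types. Slc17a6 made up 31.8% and 26.6% of the summed FPKM of the 3 transporters in the mutants, against 53.3% and 58.0% in the wild types. Slc17a7 made up 67.0% and 72.8% in the mutants and 46.5% and 41.6% in the wild types. The Slc17a6 share differed by -26.5 percentage points (29.2 ± 3.65% in mutants and 55.7 ± 3.34% in wild types, SD, n = 2 each, two-sided exact permutation test p = 0.333). That is the smallest p that 2 against 2 libraries allow, so no such test can reach 0.05 here. The summed FPKM of the 3 genes was 15.6 and 14.7 in the mutants, against 33.9 and 37.8 in the wild types (exact permutation p = 0.333).

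**Figure D2:**
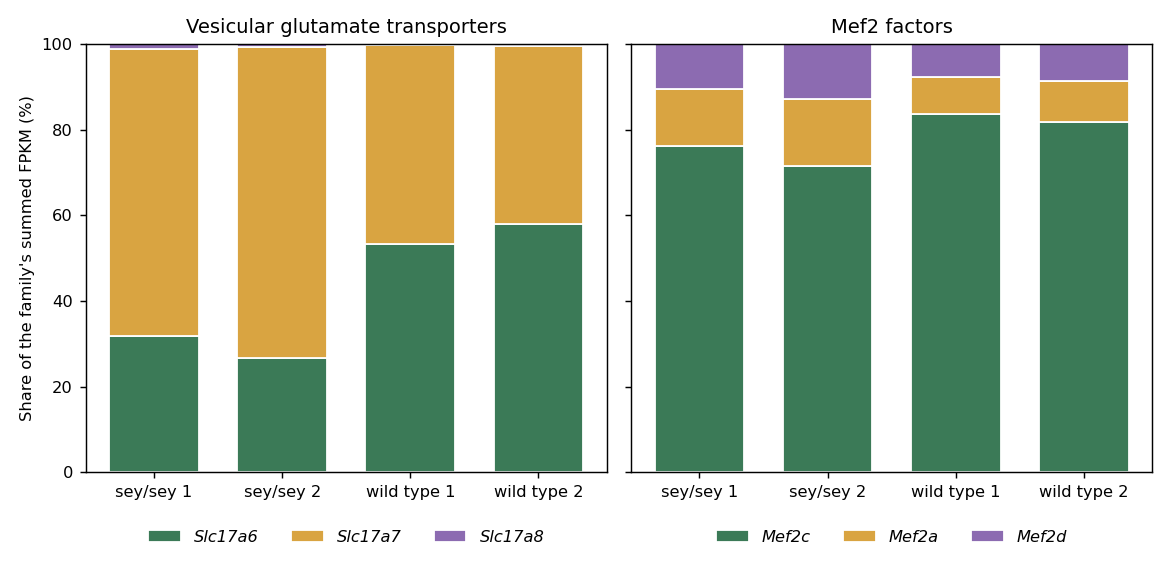
Share in percent of the summed FPKM of the 3 vesicular glutamate transporter genes (left) and of the 3 Mef2 genes (right) in each library, mutants left of wild types. Slc17a6 takes 31.8% and 26.6% in the mutants and 53.3% and 58.0% in the wild types, and Mef2c is the largest part of its family in all 4 libraries.

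RefSeq promoter sequences on GRCm38.p6 were matched for 8 of the 10 genes, all but Nrn1 and Camk2a. The 250 bases before each annotated start were searched on both strands for CAGATG, CTANNNNTA (N being any base) and TGACGTCA. These were found in 14.4%, 19.0% and 1.55% of all 32851 promoter windows of that length. CAGATG is an E-box bound by neurogenic bHLH factors, and TGACGTCA is the cAMP response element. CTANNNNTA is looser than a MEF2 site, whose middle bases are A or T. Slc17a6 is shown because it changed most among the genes with an entry, and the files do not tell its 2 starts apart. The window of start 1 ends just before the locus start given in the deposited table and holds none of the 3 motifs. That of start 2 holds 1 CAGATG, in capitals, 205 to 200 bases before its start. Mef2c start 3 is shown because its window holds 2 matches, CAGATG at 245 to 240 and CTAACGATA, a CTANNNNTA match, at 191 to 183 bases before the start, both in capitals. The windows of Mef2c starts 1 and 2, of Slc17a7, Camk2b, Mef2a and Mef2d, and of start 1 of Slc17a8 and Cntnap2 hold none of the 3, while start 2 of Slc17a8 has 1 CAGATG and start 2 of Cntnap2 has 1 CTANNNNTA. The CTANNNNTA matches of Mef2c (CTAACGATA) and Cntnap2 (CTACCAATA) have C or G among their middle bases, so neither fits a MEF2 site. A match describes the letters and is not evidence of binding.
Slc17a6 start 1, plus strand, chr7:51621580-51621829: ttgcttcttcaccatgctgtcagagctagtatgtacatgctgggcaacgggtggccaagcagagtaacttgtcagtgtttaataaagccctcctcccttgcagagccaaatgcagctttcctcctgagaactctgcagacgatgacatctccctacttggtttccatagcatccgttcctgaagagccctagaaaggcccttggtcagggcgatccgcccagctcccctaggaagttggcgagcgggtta
Slc17a6 start 2, plus strand, chr7:51624387-51624636: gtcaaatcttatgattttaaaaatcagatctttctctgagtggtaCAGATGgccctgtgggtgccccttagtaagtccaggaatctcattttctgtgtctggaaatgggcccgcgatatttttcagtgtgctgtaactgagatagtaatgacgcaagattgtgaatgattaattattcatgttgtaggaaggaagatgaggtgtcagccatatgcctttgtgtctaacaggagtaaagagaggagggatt
Mef2c start 3, plus strand, chr13:83573357-83573606: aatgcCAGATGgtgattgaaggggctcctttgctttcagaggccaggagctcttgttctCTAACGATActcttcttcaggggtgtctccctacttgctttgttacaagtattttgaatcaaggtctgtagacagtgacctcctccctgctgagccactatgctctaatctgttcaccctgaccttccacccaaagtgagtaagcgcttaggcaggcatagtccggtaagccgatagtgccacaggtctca

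Nrn1 codes for neuritin, a small membrane-anchored protein that promotes growth of neurites and stability of synapses, and lies on the minus strand of chromosome 13 from 36725361 to 36735131. It had 7.65 and 5.92 FPKM in the mutants, against 31.6 and 35.9 FPKM in the wild types. Both mutants lay far below both wild types, and the means were 6.79 ± 1.23 FPKM in mutants and 33.8 ± 3.08 FPKM in wild types (SD, n = 2 each). The log2 fold change was -2.24 (SE 0.15, 95% interval -2.63 to -1.85, limma adjusted p = 0.00823), and 41 tested genes had a lower one. The call held without mutant library 1 (adjusted p = 0.0383) and was lost without mutant library 2 (0.0619), wild-type library 1 (0.103), wild-type library 2 (0.12) or the mean-variance trend (0.0539), with log2 fold changes of -2.41 to -2.07. Of its 2249 exon bases in GENCODE M21, 501 (22.3%) are shared with Fars2 on the other strand. Strand use is not stated, so fragments from those bases may come from either gene, and the effect on the level of Nrn1 is not known. Fars2 had 4.71 and 5.48 FPKM in the mutants and 5.28 and 6.69 FPKM in the wild types.

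By root mean square difference of centred log2 values over the 4 libraries, among 11856 other genes with a mean of at least 1 FPKM, Nrn1 was the gene most like Slc17a6, and Slc17a6 the gene most like Nrn1 (0.098 log2 units). Next to Slc17a6 came Cdh12 (0.122), Eomes (0.154), Adamts2 (0.167) and Heg1 (0.171). Next to Nrn1 came Eomes (0.107), Ptx3 (0.127), Unc5d (0.155) and Cldn3 (0.157). Eomes, the transcription factor gene of intermediate progenitors, stands in both sets and had 13.8 and 8.64 FPKM in the mutants, against 49.98 and 57.4 FPKM in the wild types. With 4 libraries this likeness is a description.

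Of the Mef2 genes Mef2c fell, and Mef2a and Mef2d did not pass the threshold. Mef2c codes for the MEF2 factor of early cortical neurons and lies on the plus strand of chromosome 13 from 83504034 to 83667080. It had 157 and 141 FPKM in the mutants, against 250 and 228 FPKM in the wild types. The groups did not overlap, with means of 149 ± 11.5 FPKM in mutants and 239 ± 15.3 FPKM in wild types (SD, n = 2 each). The log2 fold change was -0.68 (SE 0.08, 95% interval -0.89 to -0.47, limma adjusted p = 0.0281). The call was lost without any 1 library (log2 fold change -0.76 to -0.60, adjusted p 0.0792 without mutant library 1, 0.149 without mutant library 2, 0.177 without wild-type library 1 and 0.179 without wild-type library 2), with no filter (0.0761) and with no trend (0.105).

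Mef2a, on the minus strand of chromosome 7 from 67231163 to 67372858, codes for a MEF2 factor made in many tissues. It had 27.8 and 30.5 FPKM in the mutants and 26.0 and 26.7 FPKM in the wild types. Its libraries did not overlap, yet the log2 fold change of 0.14 (95% interval -0.07 to 0.35, limma adjusted p = 0.426) did not pass and was 0.07 without mutant library 2. Mef2d, on the plus strand of chromosome 3 from 88142372 to 88172086, codes for another MEF2 factor of the brain. It had 21.5 and 25.4 FPKM in the mutants and 22.8 and 24.3 FPKM in the wild types, and the mutants lay on both sides of the wild types. Its log2 fold change was -0.01 (95% interval -0.29 to 0.27, limma adjusted p = 0.974), with a sign that changed with scaling and with the libraries kept. Mef2a shares 2.06% of its exon bases with Lysmd4 and Mef2d 8.87% with an antisense gene. The effect of that on their levels is not known. The locus of Mef2d in the deposited table is shared by 2 rows and runs to 88177785, past its annotated end.

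Mef2c was the main Mef2 RNA in all 4 libraries, with a lower share in both mutants. It made up 76.1% and 71.6% of the summed FPKM of Mef2a, Mef2c and Mef2d in the mutants, against 83.7% and 81.7% in the wild types. The difference was -8.84 percentage points (73.8 ± 3.21% in mutants and 82.7 ± 1.36% in wild types, SD, n = 2 each, two-sided exact permutation p = 0.333, the smallest possible).

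The Camk2 genes did not pass the threshold. Camk2b codes for the CaMKII beta subunit, which binds actin and precedes the alpha subunit in development, and lies on the minus strand of chromosome 11 from 5969644 to 6066362. It had 106 and 88.5 FPKM in the mutants, against 134 and 141 FPKM in the wild types. The mutants lay below the wild types with a log2 fold change of -0.50 (SE 0.10, 95% interval -0.76 to -0.24, limma adjusted p = 0.0778). In the authors' deposited table the p-value of Camk2b was 0.0133, from a test that is not stated, and those of Slc17a6, Slc17a7, Nrn1 and Mef2c were 0.00251, 0.442, 2.57e-05 and 9.28e-06.

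Camk2a codes for the alpha subunit, whose level climbs after birth, and lies on the plus strand of chromosome 18 from 60925618 to 60988152. It had 2.61 and 2.59 FPKM in the mutants, against 3.93 and 2.80 FPKM in the wild types. The mutants lay below the wild types and close together, the wild types further apart, and the log2 fold change was -0.30 (95% interval -0.84 to 0.24, limma adjusted p = 0.5003). It was -0.09 without wild-type library 1 and -0.51 without wild-type library 2. Per length, Camk2b RNA was 40.8 and 34.1 times Camk2a RNA in the mutants and 34.1 and 50.1 times in the wild types. The Camk2a share of the pair was 2.39% and 2.85% in the mutants and 2.85% and 1.96% in the wild types, so the groups overlapped (exact permutation p = 1).

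Cntnap2 codes for CASPR2, a neurexin-like protein that holds potassium channels in place along axons, and lies on the plus strand of chromosome 6 from 45059357 to 47304213. It had 11.7 and 12.6 FPKM in the mutants, against 12.4 and 16.6 FPKM in the wild types. The groups overlapped, and the log2 fold change was -0.23 (SE 0.16, 95% interval -0.64 to 0.17, limma adjusted p = 0.491). Without wild-type library 1 it was -0.43 (adjusted p = 0.310) and without wild-type library 2 it was -0.03 (0.931). Its locus in the deposited table is shared by 8 rows, although its annotated exons share no base with another gene.

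The cell-type markers differed between genotypes alongside these genes. Over all tested genes 1.46% were called lower and 2.02% higher (limma, adjusted p under 0.05). Of 9 markers of glutamatergic cortical neuron identity 6 fell and 0 rose, with a median log2 fold change of -0.81. Tbr1, Neurod6 and Emx1 were among them, and the list of 9 summed to 897 and 791 FPKM in the mutants, against 1366 and 1427 FPKM in the wild types. Tbr1, a factor of early-born projection neurons, had 65.5 and 59.3 FPKM in the mutants, against 111 and 117 FPKM in the wild types. Fezf2, a factor of subcortical projection neurons named after its values were seen, had 50.3 and 44.2 FPKM in the mutants and 45.6 and 48.3 FPKM in the wild types (log2 fold change 0.01). Of 12 pan-neuronal markers 1 fell (Rbfox3) and 0 rose, with a median of -0.13 (-0.06 without wild-type library 1 and -0.07 without mutant library 2), and their summed FPKM was 2618 and 2570 in the mutants and 2842 and 2743 in the wild types. All 10 GABAergic neuron markers rose, from 0.67 to 3.47 on the log2 scale, with summed FPKM of 747 and 865 in the mutants and 149 and 125 in the wild types. Without 1 library the 6 falls became 1 without mutant library 1 and 0 in the other 3 fits, and the 10 rises became 6 without mutant library 1, 1 without mutant library 2, 2 without wild-type library 1 and 2 without wild-type library 2. The Rbfox3 call was lost in all 4.

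Of 9 progenitor and cell cycle markers 5 rose and 0 fell (median 0.71), and of 6 tested Cajal-Retzius markers 2 rose and 0 fell (median 0.59). Calls over all tested genes were 2.02% higher and 1.46% lower. Of the 5 progenitor rises 1 passed without mutant library 1 and 0 in the other 3 fits, and the Cajal-Retzius rises passed in none of the 4. Of 4 tested thalamus markers 0 passed in limma and 2 (Lhx9 and Prox1) had an unadjusted p under 0.05, against 19.5% of all tested genes, and Gbx2, the defining factor of thalamic neurons, was 0.174 and 0 FPKM in the mutants and listed at 0 in both wild types. The summed FPKM of the 6 thalamus markers was 11.005 and 8.17 in the mutants and 4.81 and 4.23 in the wild types. Prox1 made up most of that sum in the mutants, with 6.34 and 5.35 FPKM there and 2.35 and 1.38 FPKM in the wild types, while Tcf7l2 had 1.64 and 0.684 FPKM in the mutants and 1.46 and 1.71 FPKM in the wild types. Of 6 tested subplate markers 1 rose (St18) and 0 fell, a call lost without any 1 library. The endothelial and microglial lists had 0 of 6 and 0 of 6 tested members called in limma. The oligodendrocyte precursor and red blood cell lists had 0 of 5 and 0 of 4. In that order 3, 2, 0 and 1 had an unadjusted p under 0.05 in limma, and 6, 3, 3 and 4 had a fold change above 0. Of all 15399 tested genes 7715 were above 0. The endothelial values ran from 0.32 to 0.69 on the log2 scale, with a median of 0.43 (0.26 to 0.60 without 1 library). Muscle markers summed to 0.320 and 0.262 FPKM in the mutants and 0.288 and 0.2203 FPKM in the wild types. How far a change in the mix of cells accounts for the differences of the 10 genes was not tested.

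Set against the mean of the pan-neuronal markers of each library, Slc17a6, Nrn1 and Mef2c still passed (log2 fold changes -2.00, -2.18 and -0.62, limma adjusted p = 0.00285, 0.00140 and 0.0216). Set against the mean of the glutamatergic identity markers, which moved the median of all tested genes to 0.76, Slc17a6 and Nrn1 were lower at -1.30 (95% interval -1.73 to -0.87) and -1.48 (-1.88 to -1.09). Those 9 markers were not uniform, from -1.77 to 0.01 with FPKM as deposited. Set against their own mean, 2 of the 9 passed as lower and 2 as higher. On that scale Mef2c was at 0.08 (-0.28 to 0.43), Slc17a7 at 0.21 (-0.21 to 0.62) and Camk2b at 0.26 (-0.08 to 0.60), each with an interval that includes 0, which does not show that they moved as those markers did. Mef2a, Mef2d and Cntnap2 were at 0.90, 0.75 and 0.52, near the median of all genes on that scale.

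**Figure D3:**
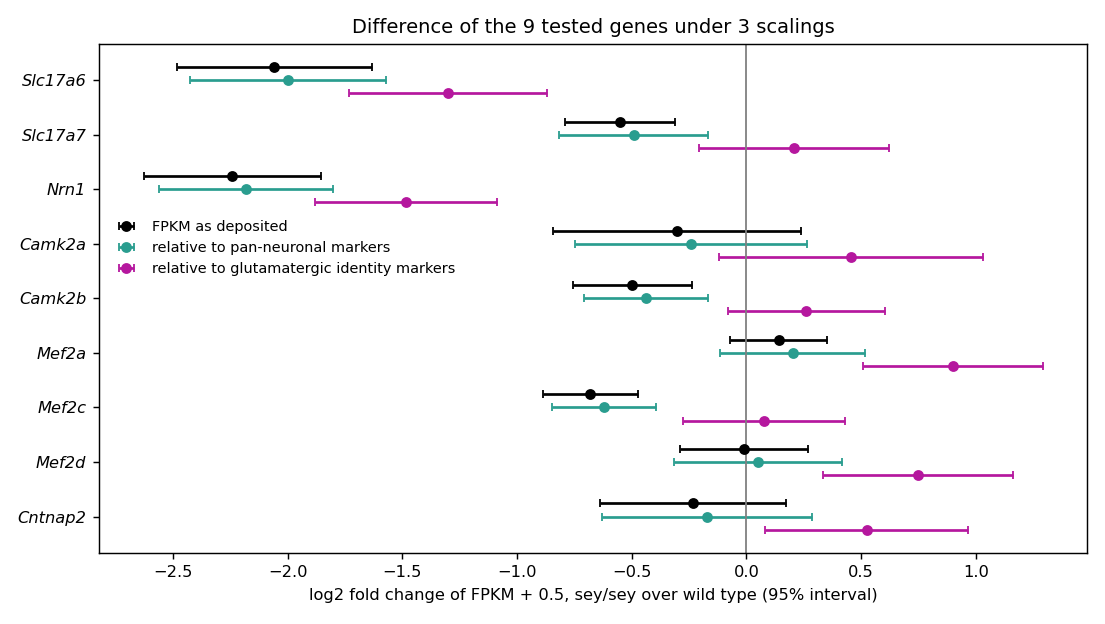
Genotype difference in log2(FPKM + 0.5), mutants minus wild types, with 95% intervals from limma, for the 9 tested genes with FPKM as deposited (black), relative to the mean of 12 pan-neuronal markers (green) and relative to the mean of 9 glutamatergic identity markers (magenta). Slc17a6 and Nrn1 lie below 0 on all 3 scales, at -1.30 and -1.48 on the last, while Mef2c lies at -0.68, -0.62 and 0.08.

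Over 9 lists of related genes 6 of 93 tested genes (6.45%) passed in limma, 3 higher and 3 lower, where 3.48% of all tested genes did. At an unadjusted p under 0.05 there were 30 of the 93 (32.3%), against 19.5% of all tested genes. Without any 1 library 0 of the 93 passed, with 20 to 28 list genes at an unadjusted p under 0.05. Among other vesicular transporters 2 of 3 tested genes rose and 0 fell: Slc32a1, the transporter of GABA and glycine, had 11.7 and 12.4 FPKM in the mutants, against 3.45 and 2.44 FPKM in the wild types (log2 fold change 1.88, adjusted p = 0.0197). Slc18a2, the transporter of monoamines, had 9.53 and 15.0 FPKM in the mutants, against 1.31 and 0.966 FPKM in the wild types (2.94, adjusted p = 0.0160). Slc32a1 shares 24.9% of its exon bases with an antisense gene, and the effect of that on its level is not known. The GABA transporter gene thus stood above Slc17a6 in the mutants and below it in the wild types on the FPKM scale.

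Genes that make, recycle or take up glutamate had 0 of 17 members called in limma, with 6 at an unadjusted p under 0.05 and a median of 0.06. Over all tested genes 19.5% were under that unadjusted p. Slc38a2, a glutamine carrier, had 115 and 129 FPKM in the mutants and 109 and 106 FPKM in the wild types. The proton pump that powers vesicle filling had 0 of 13 members called (3 at an unadjusted p under 0.05), with 0 of 13 fold changes above 0, a lowest value of -0.22 and a median of -0.14. Its most abundant members, Atp6v0c and Atp6v0b, had 187 and 192 FPKM and 154 and 142 FPKM in the mutants, against 232 and 186 FPKM and 170 and 162 FPKM in the wild types. Atp6v0b shares 11.9% of its exon bases with an antisense gene.

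Among CaMKII-related kinases, their inhibitors and calmodulins, 1 of 14 fell and 0 rose in limma (4 at an unadjusted p under 0.05, median -0.16). It was Camkv, a kinase-like protein of vesicles and spines without kinase activity, with 54.5 and 54.3 FPKM in the mutants, against 71.3 and 76.6 FPKM in the wild types (log2 fold change -0.44, adjusted p = 0.0398). Camk2g and Camk2d, named here as the other CaMKII subunit genes after their values were seen, had log2 fold changes of -0.35 and -0.28 (adjusted p = 0.0869 and 0.590). Camk2g had 21.8 and 22.4 FPKM in the mutants, against 29.1 and 27.8 FPKM in the wild types. Of the 14 fold changes 2 were above 0, the highest being 0.57 for Camk4, named after its values were seen (limma adjusted p = 0.129). Camk4 had 5.77 and 5.63 FPKM in the mutants, against 3.90 and 3.45 FPKM in the wild types. Synaptic partners of CaMKII had 0 of 9 tested members called (5 at an unadjusted p under 0.05, median -0.25, which was -0.05 without mutant library 2). The glutamate receptor gene Gria2 had 271 and 300 FPKM in the mutants, against 336 and 352 FPKM in the wild types. The scaffold gene Dlg4 had 100.4 and 76.0 FPKM in the mutants, against 104 and 104 FPKM in the wild types. Of the 9 fold changes 3 were above 0. Gria1, a receptor gene named after its values were seen, lay furthest from 0 at 0.80 (limma adjusted p = 0.0679). It had 35.4 and 46.5 FPKM in the mutants, against 21.5 and 24.8 FPKM in the wild types.

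Regulators of MEF2 proteins had 1 of 15 tested members lower and 0 higher in limma (5 at an unadjusted p under 0.05, median -0.01). It was Sik2, a kinase that acts on the MEF2-repressing histone deacetylases, with 11.9 and 12.1 FPKM in the mutants, against 22.7 and 19.4 FPKM in the wild types (log2 fold change -0.78, adjusted p = 0.0351). It shares 15.0% of its exon bases with Ppp2r1b on the other strand, and the effect of that on its level is not known. Of 5 tested genes known as MEF2 targets 1 rose and 0 fell in limma (2 at an unadjusted p under 0.05, median 0.08). It was Jun, an immediate early gene, with 24.2 and 26.1 FPKM in the mutants, against 12.8 and 15.2 FPKM in the wild types (0.83, adjusted p = 0.0344). Jun shares 7.28% of its exon bases with an antisense gene.

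Genes related to Nrn1 by family or by their role in plasticity had 0 of 5 tested members called in limma, 0 of them at an unadjusted p under 0.05, and a median of -0.02. The neurotrophin receptor gene Ntrk2 had 26.3 and 25.9 FPKM in the mutants and 35.5 and 28.6 FPKM in the wild types, and the pentraxin receptor gene Nptxr had 10.7 and 9.51 FPKM in the mutants and 12.1 and 8.39 FPKM in the wild types. Nptxr shares 17.2% of its exon bases with Npcd on the same strand, and the effect of that on its level is not known. Relatives and partners of Cntnap2 had 1 of 14 tested members lower and 0 higher in limma (4 at an unadjusted p under 0.05, median -0.28). It was Cntn2, the contactin that binds CASPR2 along axons, with 99.1 and 91.1 FPKM in the mutants, against 170 and 195 FPKM in the wild types (log2 fold change -0.94, adjusted p = 0.0188). Of the 14 fold changes 4 were above 0, the highest being 1.07 for Cntnap3, named after its values were seen (limma adjusted p = 0.124). Cntnap3 had 4.57 and 2.88 FPKM in the mutants, against 1.69 and 1.28 FPKM in the wild types. The channel genes Kcna1 and Kcna2, whose products CASPR2 gathers, were also named after their values were seen. Kcna1 had 2.17 and 1.51 FPKM in the mutants, against 2.40 and 3.15 FPKM in the wild types, and Kcna2 had 1.10 and 0.970 FPKM in the mutants, against 1.44 and 1.22 FPKM in the wild types (adjusted p = 0.353 and 0.601).

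**Figure D4:**
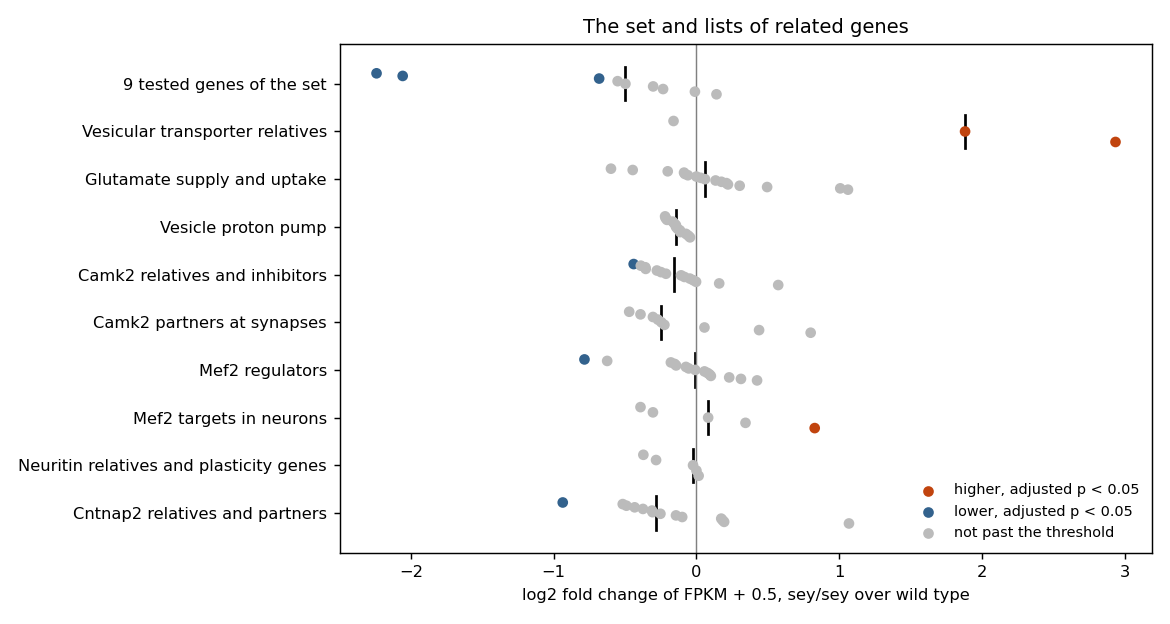
Genotype difference in log2(FPKM + 0.5), mutants minus wild types, for the 9 tested genes of the set and for the tested members of 9 lists of related genes, with a black bar at each median and colour for an adjusted p under 0.05. The proton pump genes lie between -0.22 and -0.04, and 6 list genes pass, 3 on each side of 0.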

How the data were processed

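RNA of 4 cortex libraries at embryonic day 16.5 was sequenced, 2 per genotype. The authors deposited per-library FPKM for 22770 genes, per the file headers. Per the submitters' processing notes, edgeR, TopHat2 2.0.9 and Cufflinks 2.2.1 were used, with no role given, and the builds were GRCm38.p4 and mm10. Beside these values the deposited file gives group FPKM, a ratio (fold) of mutant over wild type and a p-value whose test is not stated. Strand use and fragment totals are not given in the sources used here, so depth is unknown and no counting interval is given.

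Genes with at least 0.5 FPKM in 2 libraries were kept. On the log2(FPKM + 0.5) scale, which understates the change of low genes, genotype was fitted over all 4 libraries with limma 3.58.1 in R 4.3.3 (lmFit, eBayes with a mean-variance trend). Tests were two-sided, with p-values adjusted by Benjamini-Hochberg across the 15399 genes kept and called under 0.05. Family shares were compared by exact permutation of libraries (scipy 1.17.1). Coordinates and exon overlaps are from GENCODE M21 on GRCm38, counted from 1, and 22599 identifiers had a symbol in the reference table. From each list of related genes, called genes were named (up to 4 with the smallest p) or, with none called, up to 2 of the highest mean level, beside the 5 genes most like Slc17a6 and Nrn1. The members, lists and tests were chosen with earlier results of these data known. Alternatives were pseudocounts of 0.1 and 1, no filter, no trend, 4 scalings, the replicate number as a block and leaving out each library. Some genes that this rule would name are not reported here.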

Additional observations from a re-analysis of the deposited data

How the results depend on the processing

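Counts of called genes stayed within 1.5 times their value with pseudocounts of 0.1 and 1, with median centring and when scaled without mitochondrially encoded genes. Centring on pan-neuronal markers left 3 of the 10 genes called. With no filter 61 of all genes passed, 1 of the 10 and 0 of the list genes (3322, 5 and 27 at an unadjusted p under 0.05 in limma), and with no trend 54, 0 and 0 (2764, 5 and 24). Leaving out 1 library gave 7 to 59 of all genes, 0 to 1 of the 10 and 0 of the list genes (20 to 28 of these at an unadjusted p under 0.05 in limma). Centred on glutamatergic identity markers 5 of the 10 genes passed. That centring moves every gene by 1 offset, and 13 of 13 proton pump genes and 15 of 17 glutamate supply genes then passed as higher. The count is thus not particular to the 10. Slc17a7, Camk2a, Camk2b, Mef2c, Mef2d and Cntnap2 turned to 0.21, 0.45, 0.26, 0.077, 0.75 and 0.52 by that offset. The share of all tested genes called was not counted under either marker centring. Mef2d ranged from -0.13 to 0.11 without 1 library, being above 0 without mutant library 1 (0.11) and wild-type library 2 (0.036), and was 0.050 against pan-neuronal markers. Without 1 library the genotype difference in share was -29.1 to -23.9 percentage points for Slc17a6, -11.1 to -6.57 for Mef2c and -0.23 to 0.66 for Camk2a, which was -0.0094 without mutant library 2 and -0.23 without wild-type library 2. The cause of the other changes was not tested.

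Replicate numbers recur in both genotypes, but no label ties a number to a litter or batch, and the deviations of same-numbered libraries correlated at 0.049 over genes. With the replicate block 374 of all genes passed, 3 of the 10 (Slc17a6 at adjusted p = 0.0273, Nrn1 at 0.0197 and Mef2c at 0.0241) and 5 of the list genes, Camkv (adjusted p = 0.0603) and Sik2 (0.0543) being lost and Gria1 (0.0360) gained. Without 1 library the median log2 fold change ran from 0.02 to 0.17 for glutamate supply, -0.27 to -0.12 for CaMKII relatives, -0.07 to 0.04 for MEF2 regulators, -0.07 to 0.24 for MEF2 targets, -0.27 to 0.08 for the relatives of Nrn1 and -0.29 to -0.17 for those of Cntnap2. With 2 libraries a genotype, a gene that missed the threshold can still differ.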
